A study of Equus caballus with 78 samples.

Results

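At time point 10, the earliest sampling after baseline, the microRNA content of extracellular vesicles in synovial fluid was compared between a joint with modelled osteoarthritis (OA) and a control joint (CTRL) of the same horses. The comparison rests on 6 of the 78 libraries of the series, chosen by their labels: 3 of OA-joint fluid and 3 of CTRL-joint fluid, 1 from each joint of horses 2, 6 and 8. No microRNA passed the test between the joints, so the differences below are given as values. Fluid of the OA joint held less miR-10b, a microRNA encoded within a HOX gene cluster, in all 3 horses, at a mean of 32606 ± 15815 against 71603 ± 13587 CPM (reads scaled to 1000000 microRNA reads; SD, n = 3 horses). It also held less miR-451, a microRNA abundant in red blood cells, in all 3 horses, at 16010 ± 16752 against 39634 ± 11371 CPM. For miR-451 the libraries of the joints overlapped, and red cell markers did not all follow it. Of the 7 erythrocyte microRNAs with over 3 reads in each joint, 6 were fitted lower and 1 higher. MiR-486-5p, another red cell marker, had the larger CPM on the OA side in horses 2 and 6 and the smaller in horse 8. MiR-144 had 298 reads in OA-joint fluid against 1 in CTRL-joint fluid. MiR-21 and the endothelial miR-126-3p stood higher in the OA joint of all 3 horses in CPM, but taken per spike-in read (UniSp2) both were lower in horse 8. The other arm of the miR-126 hairpin, miR-126-5p, was lower in CPM in the OA joint of 2 horses and higher in 1.

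Synovial fluid is the lubricating fluid of a joint, and extracellular vesicles are membrane-bound particles that cells release into it. Small RNA was sequenced from such vesicles of plasma, OA-joint fluid and CTRL-joint fluid of 4 horses (Equus caballus) at 7 time points, which makes 21 groups. The labels give the time points as bare numbers without a unit, and they give no age or breed and state neither how the osteoarthritis was induced nor which joint was sampled. The CTRL joint belongs to the animal that carries the OA joint, so it is not the joint of an unaffected horse. Horse 4 has no library from time point 10 among those analysed here.

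MicroRNAs are short RNAs that guide Argonaute proteins to matching messenger RNAs and lower their translation or stability, mainly through pairing of the seed near the 5′ end. Within a joint, vesicles can come from synovial fibroblasts, chondrocytes, leukocytes and endothelium, while erythrocytes, platelets and plasma can add microRNAs from blood. Many of the microRNAs below are used as markers of one of these sources, although few are made by a single cell type, and their roles are given as known from human, mouse or zebrafish. In a bulk library such as these, fewer vesicles of a source and less of a microRNA per vesicle cannot be told apart.

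The 6 libraries held 7021192 to 10542748 reads in all, of which 40700 to 71772 were microRNA reads. The synthetic spike-in UniSp2 took 22.8% to 51.8% of a library. MicroRNA made up 0.583%, 0.681% and 0.568% of the OA-joint libraries of horses 2, 6 and 8 and 0.931%, 0.750% and 0.668% of the CTRL-joint libraries. The share was lower in the OA joint of all 3 horses, while the groups overlapped (difference -0.172 percentage points, exact permutation test, p = 0.2, two-sided, n = 3 each). The smallest p that 3 libraries against 3 can give is 0.1. Relative to UniSp2, which was added in a set amount if it was used as a spike-in, the fluids held 22.3 ± 6.12 and 21.4 ± 7.43 microRNA reads per 1000 spike-in reads (SD, n = 3; exact permutation test, p = 0.9). Thinned to 40700 microRNA reads, OA-joint libraries held 80.6 ± 2.08 microRNAs and CTRL-joint libraries 72.2 ± 11.5 (SD, n = 3; exact permutation test, p = 0.4). Adjusted over these 3 comparisons the p-values were 0.6, 0.9 and 0.6.

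The CTRL-joint library of horse 8 stood apart from the others. It held over 3 reads of only 50 microRNAs, against 66 to 79 in the other 5 libraries, and 10 reads of miR-199a-3p, against 1170 to 3050. Across the 35 microRNAs with over 3 reads in all 6 libraries, its rank correlation (Spearman) with the OA-joint library of horse 2 was 0.210, the lowest of all pairs. Pairs of joints from the same horse correlated at 0.582 to 0.719 (3 pairs), libraries of the same joint from different horses at 0.468 to 0.834 (6 pairs), and the remaining pairs at 0.210 to 0.796 (6 pairs). These ranges overlap. The pairs are few and share libraries, so the ranges do not settle whether libraries were more alike by horse or by joint. The CTRL-joint library of horse 6 was the single one of the 6 whose deposited name carries a 1 in the field read as the sequencing lane.

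Reads were spread unevenly over microRNAs in a way that bears on every value below. Of the 690 names in the files, 137 had a read in at least 1 of the 6 libraries and 42 had one in all 6, while 40 were read in 1 library. Among the 139 microRNAs tested, 46.5% of the 834 values were 0, 4.44% lay at 1 to 3 reads, 0.6% at 4 to 24 reads and 32.7% at 100 to 999. A microRNA was thus mostly either missing from a library or present well above the floor of 3 reads. Intervals and floors below cover counting error only and not this spread between horses, and reads were not collapsed to molecules in any source used here.

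The 10 most frequent microRNAs took 56.8% to 63.3% of the microRNA reads of each library. MiR-486-5p, an erythroid microRNA, was first in the OA-joint libraries of horses 2 and 6 and in the CTRL-joint library of horse 8. Let-7c, a member of the let-7 seed family of differentiated cells, led the OA joint of horse 8 and the CTRL joint of horse 2, and miR-26a led the CTRL joint of horse 6. By the mean over the 6 libraries the order was miR-21 (86047 CPM), let-7c (83395 CPM), miR-486-5p (82251 CPM), miR-26a (72372 CPM) and miR-10b (52105 CPM). The libraries of these 5 overlapped in level, so neighbours in this order were not separated.

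**Figure D1:**
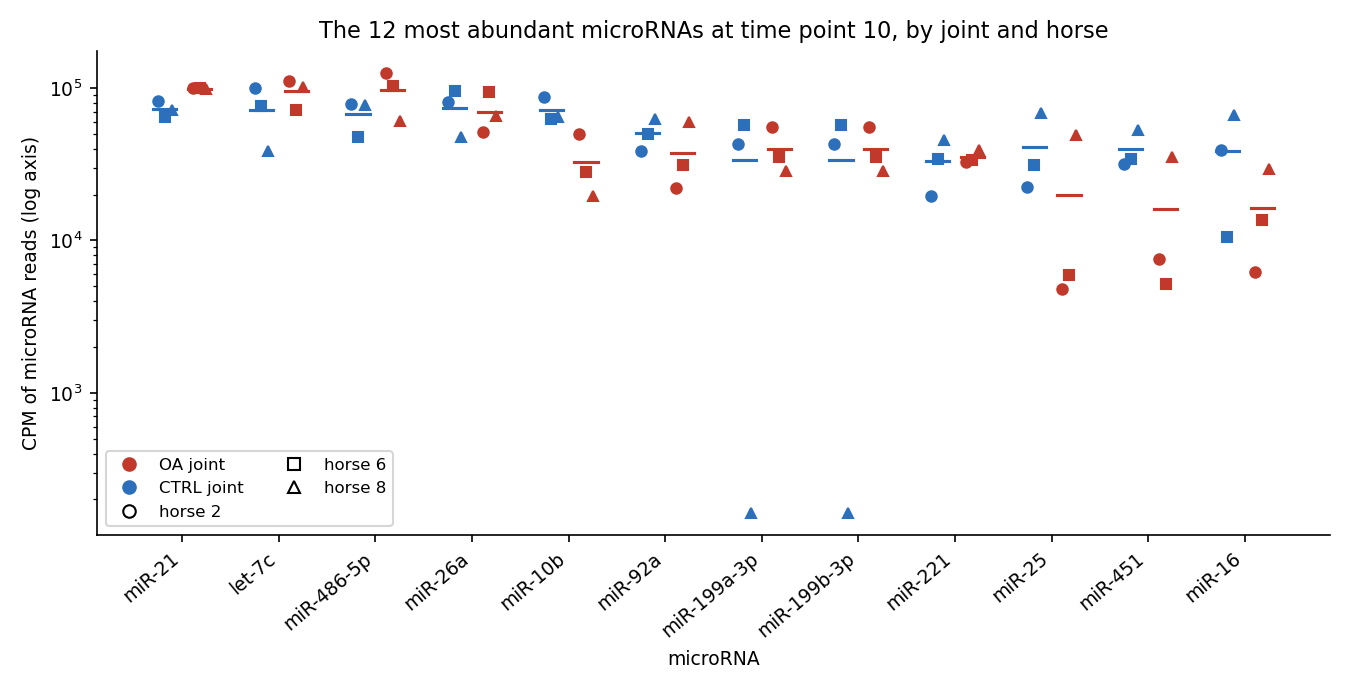
CPM of microRNA reads (log axis) of the 12 microRNAs with the highest mean over the 6 libraries of time point 10; points are libraries, shapes are horses 2, 6 and 8, and short lines are the means of the 3 libraries of a joint. The OA-joint points of miR-10b lie at or below 50204 CPM and its CTRL-joint points at or above 62947 CPM, and the CTRL-joint library of horse 8 lies at 164 CPM of both miR-199 microRNAs.

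In the test between the joints, fitted with edgeR over all 52 synovial fluid libraries, 0 of 139 microRNAs passed at an adjusted p of 0.05 (0%). This fit had no term for the horse, so it did not use the pairing of the joints. The smallest adjusted p was 0.371, and 8 microRNAs (5.76%) had an unadjusted p under 0.05. In DESeq2, run as an alternative on the same counts, 15 of 139 passed (10.8%), 12 higher and 3 lower in the OA joint. Of these 15, 9 had reads in a single library of the 6 and 3 in just a pair of libraries, and 1 of them, miR-487b, rested on a single read. All 15 were at 0 or at 1 read in one of the joints. Without any 1 library, or any 1 horse, edgeR again called 0.

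Of the 120 tested microRNAs with a read in the 6 libraries, 78 had over 3 reads in each joint, and of these 39 were fitted higher and 39 lower in the OA joint, with a median log2 fold of -0.01. Over the same 78 that median was 0.19 with RLE scaling, -0.08 with no scaling and 0.08 with UniSp2 scaling, so folds of that size have no fixed direction. A further 34 were at 0 reads in one joint, 19 of them read in the OA joint alone and 15 in the CTRL joint alone, and 8 had 1 to 3 reads in one joint. Libraries of the joints did not overlap in CPM for 9 of the 139 tested microRNAs: 5 (3.6%) lay higher in all OA-joint libraries and 4 (2.88%) lower. The 5 were miR-21, miR-126-3p, let-7d, let-7g and miR-192, and the 4 were miR-10b, miR-101, miR-423-5p and miR-215. Taken per UniSp2 read instead of per microRNA read, let-7d, let-7g, miR-192 and miR-215 still did not overlap, and miR-10b, miR-21, miR-126-3p, miR-101 and miR-423-5p did. Let-7g and miR-192 had 0 reads in the CTRL joint, which no scaling changes, and let-7d had 1 read there. Their lack of overlap is therefore no check of the scaling. Per UniSp2 read miR-27a and miR-30e did not overlap either, which gave 5 higher (3.6%) and 1 lower (0.719%). With TMM scaling miR-21 and miR-101 overlapped, while miR-22 and miR-31 lay higher and miR-451 lower without overlap, which gave 6 higher (4.32%) and 4 lower (2.88%). Per read of the library total the counts were 4 higher (2.88%) and 7 lower (5.04%).

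MiR-10b, which belongs with miR-10a to the microRNAs of the HOX clusters, stood at 50204, 28033 and 19582 CPM in the OA joint of horses 2, 6 and 8 and at 87262, 62947 and 64598 CPM in the CTRL joint. Every OA-joint library lay below every CTRL-joint library, and the ratio within a horse was lowest in horse 8. The fitted log2 fold was -1.13 (SE 0.61, adjusted p = 0.371 in edgeR over 139 microRNAs). This was the smallest p among the 78 microRNAs with over 3 reads in each joint, and the fold stayed between -1.42 and -0.81 in 19 of 19 alternative settings. At time point 0 the order had been the reverse in 2 horses. Horse 6 then held 112981 CPM in the OA joint against 40627 in the CTRL joint, horse 8 held 157445 against 55879, and horse 2 held 19723 against 54118. The joint difference moved by -1.64 on the log2 scale from time point 0 to 10 (SE 0.80, adjusted p = 0.299 in edgeR), which did not pass.

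Its relatives were read more patchily. Of the 5 tested members of the miR-10 and miR-99/100 family, 4 were fitted lower and 1 higher, and 0 passed. MiR-10a, whose mature form differs little from miR-10b, had 442 reads in the OA joint of horse 2 and 18, 2 and 0 in the CTRL joint, but no read in the OA joint of horses 6 and 8. MiR-99a had 3752, 16190 and 13415 CPM in the OA joint and 8965, 23492 and 11195 CPM in the CTRL joint, with overlapping groups (log2 fold -0.33, SE 1.35). The family as a whole took 6.53%, 5.13% and 3.46% of the microRNA reads in the OA joint and 10.6%, 9.68% and 7.58% in the CTRL joint, of which miR-10b was the main part.

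MiR-21, a widely expressed microRNA that is induced in inflammation and fibrosis, was steady over the OA-joint libraries at 99501, 100415 and 97912 CPM. In the CTRL joint it stood at 82795, 64268 and 71390 CPM. The OA-joint libraries were all higher, by 0.27, 0.64 and 0.46 on the log2 scale within horses 2, 6 and 8. Per UniSp2 read these ratios were 0.51, 1.56 and -0.46, and those of miR-126-3p were 1.65, 1.59 and -0.26. MiR-10b (-0.56, -0.25 and -2.64) and miR-451 (-1.85, -1.80 and -1.49) were lower in all 3 horses on that scale too. The fitted log2 fold was 0.46 (SE 0.56, adjusted p = 1.00 in edgeR) and did not pass. The other members of the inflammation-induced list gave another picture: of the 5 tested, miR-21 was fitted higher and miR-146a, miR-146b-5p, miR-155 and miR-223 lower, with a median log2 fold of -0.34, and 0 passed. MiR-146a, a feedback regulator of NF-kB signalling, stood at 2206, 0 and 7076 CPM in the OA joint and at 3886, 6283 and 9509 CPM in the control joint. It was lower in the OA joint of all 3 horses while the groups overlapped (log2 fold -1.08, SE 1.84). The list as a whole, in which miR-21 takes most reads, held 11.8%, 10.2% and 11.5% of the OA-joint reads and 10.1%, 8.22% and 8.82% of the CTRL-joint reads. At time point 0 it had been lower on the OA side in each horse, at 7.80%, 2.33% and 5.28% against 10.7%, 11.0% and 5.92%.

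Among microRNAs of endothelium and platelets, miR-126-3p stood at 16453, 13849 and 15160 CPM in the OA joint and at 6181, 8699 and 9640 CPM in the control joint. MiR-126 lies in an intron of EGFL7 and supports vascular integrity. The joints did not overlap, yet the fitted log2 fold of 0.94 had an SE of 1.44 and did not pass. The other arm of the same hairpin, miR-126-5p, did not follow: it stood at 8969, 1491 and 3956 CPM in the OA joint and at 7802, 6585 and 6383 CPM in the control joint (fitted log2 fold -0.55, SE 1.89). MiR-221 and miR-222, seed relatives that are abundant in endothelium, had log2 folds of 0.17 (SE 0.97) and 0.18 (SE 1.47). Of the 8 tested microRNAs of the platelet list 5 were fitted higher and 3 lower, with a median of 0.17, and 0 passed. The list took 20.3%, 19.2% and 19.6% of the microRNA reads in the OA joint and 13.9%, 14.9% and 18.2% in the CTRL joint, without overlap. A large part of this was miR-21, a member of the list, with 99501, 100415 and 97912 CPM against 82795, 64268 and 71390 CPM. The list share is therefore not a result apart from that of miR-21. At time point 0 the order of the list share was the reverse in all 3 horses, with 19.1%, 6.50% and 9.79% in the OA joint against 22.6%, 20.1% and 12.0%. Plasma of the same horses at time point 10 gave 28.0%, 49.7% and 6.92%. The part of blood in these values was not tested.

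**Figure D2:**
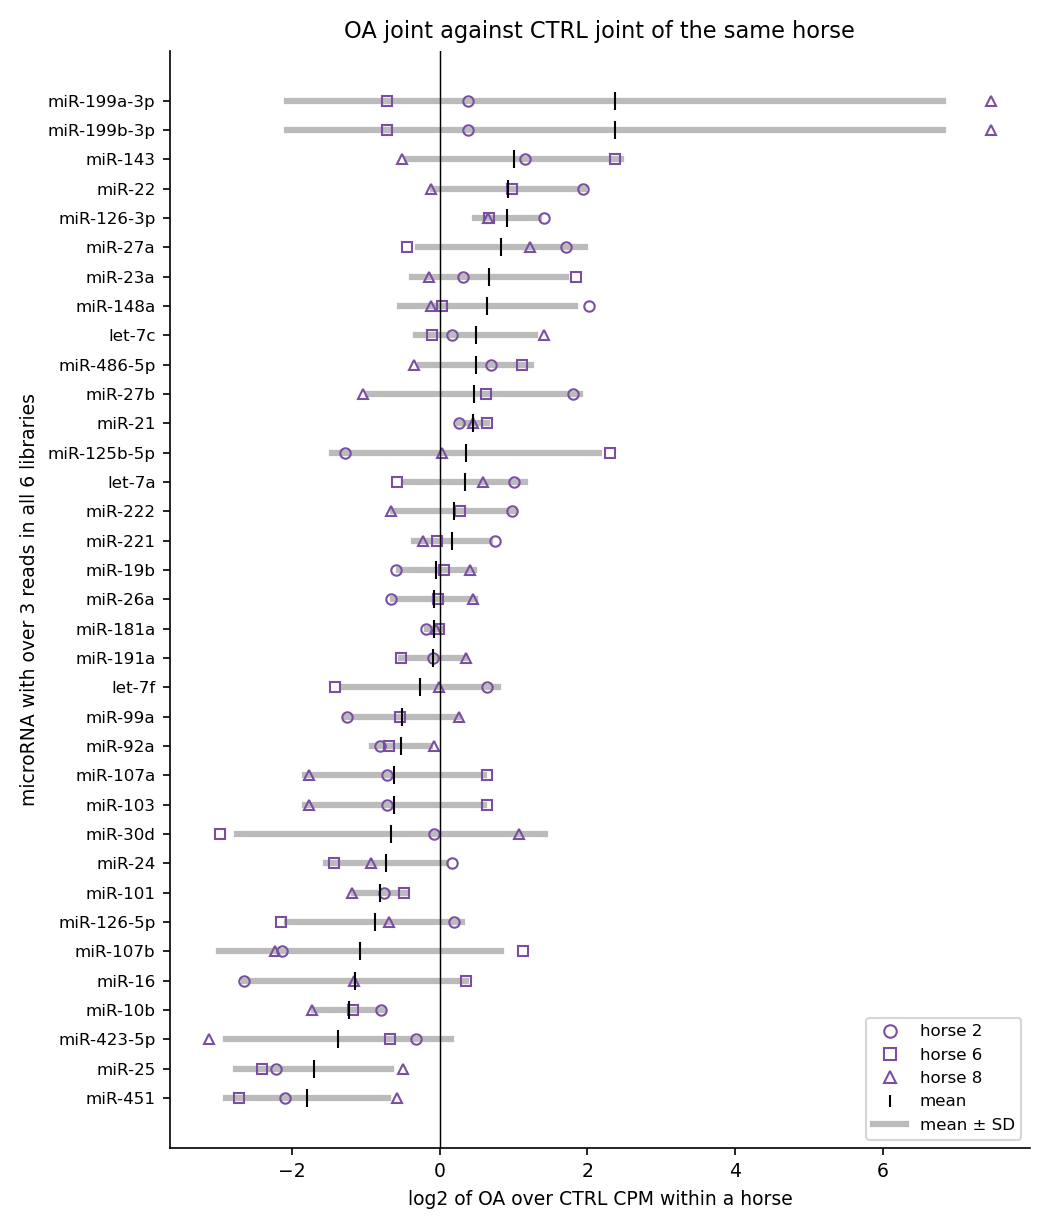
Log2 ratio of OA-joint over CTRL-joint CPM within each horse (shapes) for the 35 microRNAs with over 3 reads in all 6 libraries, ordered by their mean (line) with its SD (grey bar, n = 3 horses). The means run from -1.79 for miR-451 to 2.37 for miR-199a-3p, whose value in horse 8 is 7.46, and the horses straddle 0 for 26 of the 35.

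Within horses, the ratios of these 35 microRNAs varied with a median SD of 1.04 on the log2 scale, while the median of their means was -0.07. The mean was above 0 for 16 and below 0 for 19. MiR-21 and miR-126-3p were higher in all 3 horses, and 7 were lower in all 3: miR-10b, miR-451, miR-25, miR-92a, miR-101, miR-423-5p and miR-181a. The last shows how small such a shift can be, with -0.19, -0.01 and -0.05 in horses 2, 6 and 8.

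The red blood cell microRNAs did not move as a unit. MiR-451, which is processed by Argonaute 2 without Dicer during red cell maturation, stood at 7525, 5197 and 35307 CPM in the OA joint and at 31974, 34228 and 52700 CPM in the control joint. The OA joint was lower within each horse, by -2.09, -2.72 and -0.58, but horse 8 was high in both joints, so the groups overlapped (log2 fold -1.31, SE 1.23, adjusted p = 0.919 in edgeR). MiR-25, which shares its seed with miR-92a, had the same layout: 4783, 5922 and 48870 CPM against 22275, 31360 and 68788 CPM (log2 fold -1.0, SE 1.30). These folds come from the fit without a term for the horse. With the horse as a block on the 6 libraries alone, miR-451 was at -1.63 (SE 0.60) and miR-25 at -1.54 (SE 0.60). Both then had an adjusted p of 0.378 in edgeR over 69 microRNAs and did not pass. MiR-92a, of the miR-17~92 cluster, stood at 22040, 31168 and 59853 CPM against 38522, 50210 and 62798 CPM (log2 fold -0.38, SE 0.75). Its fitted direction turned when the OA-joint library of horse 2 or of horse 6 was left out, with log2 folds of 0.01 and 0.03.

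MiR-16, a regulator of cell cycle genes, was lower in the OA joint of horses 2 and 8 and higher in horse 6, at 6227, 13557 and 29558 CPM against 38950, 10548 and 66104 CPM (log2 fold -1.18, SE 0.99). MiR-486-5p, another defining marker of red cells, went the other way in 2 horses. It stood at 126057, 102965 and 61204 CPM in the OA joint and at 78038, 47569 and 77675 CPM in the control joint (fitted log2 fold 0.55, SE 0.69). MiR-144, transcribed together with miR-451, had 0, 106 and 192 reads in the OA joint against 0, 0 and 1 in the CTRL joint. The pooled reads gave a ratio of 332 (exact 95% interval 59.2 to 13166, counting error only). Of the 11 tested microRNAs of the erythrocyte list, 7 had over 3 reads in each joint, 1 of them fitted higher and 6 lower, with a median log2 fold of -1.0 beside -0.01 over all 78 such microRNAs, and 0 passed.

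The erythrocyte list took 16.8%, 16.4% and 24.2% of the microRNA reads in the OA joint and 21.8%, 17.5% and 33.5% in the CTRL joint. It was lower in the OA joint of each horse, and highest in both joints of horse 8. In plasma of horses 2, 6 and 8 at time point 10 it took 40.6%, 3.37% and 61.1%. The plasma library of horse 6 differed from the other 2 in that 13.1% of its reads were microRNA. Several members, such as miR-16, miR-25 and miR-92a, are also made by other cells. The part of red cells in the differences between the joints was not tested.

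**Figure D3:**
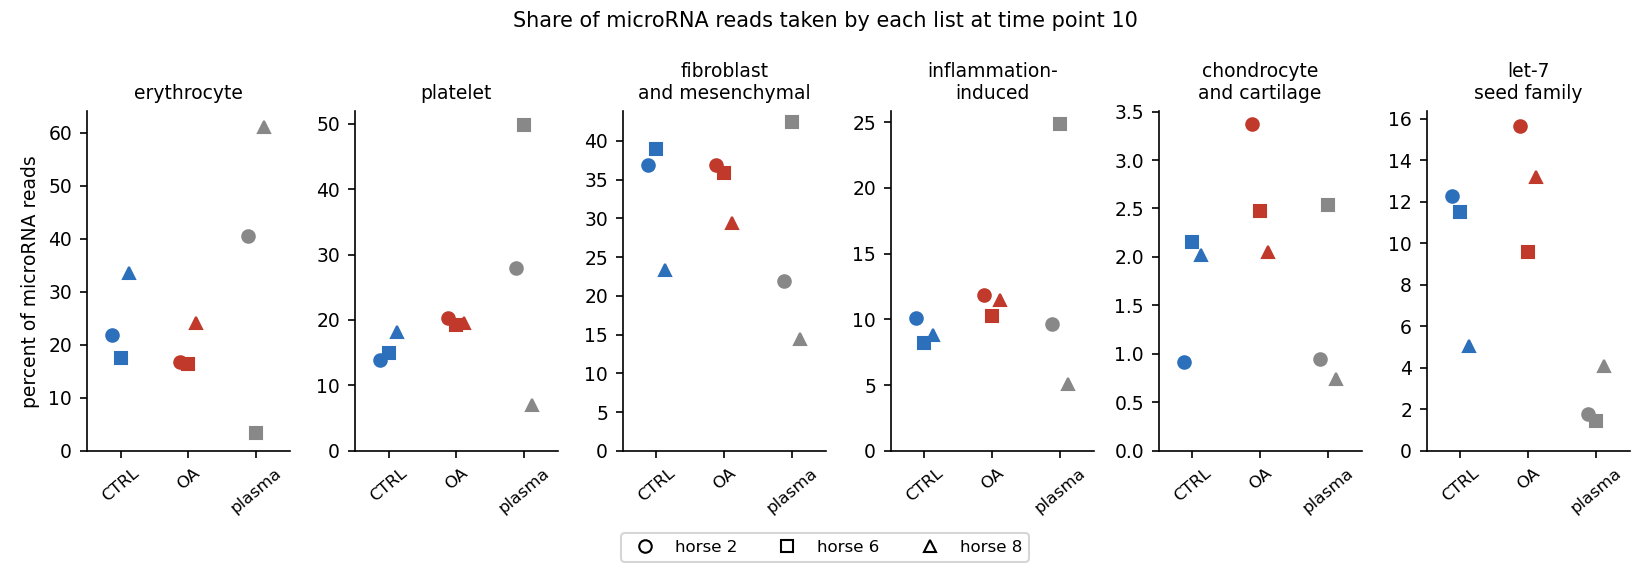
Percent of microRNA reads taken by 6 lists of microRNAs at time point 10 in CTRL-joint fluid, OA-joint fluid and plasma of horses 2, 6 and 8 (each point is a library, and each panel has its own axis from 0). The platelet and inflammation-induced lists, which share miR-21 and miR-223, show no overlap between the joints, and the erythrocyte list spans 3.37% to 61.1% in plasma.

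Mesenchymal microRNAs were well represented. MiR-199a-3p and miR-199b-3p had equal reads in all 6 libraries and are not read as independent microRNAs. They stood at 55524, 35111 and 28747 CPM in the OA joint and at 42729, 57550 and 164 CPM in the control joint. The value of 164 CPM rests on the 10 reads of horse 8, and without that library the fitted log2 fold turned from 0.19 to -0.12. MiR-143, typical of smooth muscle and fibroblasts, stood at 4928, 10687 and 4865 CPM against 2203, 2057 and 6907 CPM (log2 fold 1.03, SE 2.31). MiR-214, the other defining marker, is transcribed with a miR-199 gene and had 0 reads in all 6 libraries. Over the fibroblast and mesenchymal list 9 members were fitted higher and 6 lower, with a median of 0.19, and 0 passed. This median equals the fitted fold of miR-199a-3p, which turned without the CTRL-joint library of horse 8.

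MiR-26a stood at 51441, 94034 and 65086 CPM in the OA joint and at 80929, 95081 and 47659 CPM in the control joint, and its fitted log2 fold of -0.07 (SE 0.47) changed sign in 12 of 19 alternative settings. The miR-23/27/24 clusters, in which miR-27 targets a collagenase of cartilage, had 4 of 5 members fitted higher in the OA joint and 0 passed. MiR-23a stood at 22721, 48264 and 15823 CPM against 18266, 13472 and 17528 CPM (log2 fold 0.89, SE 1.17). The high value of horse 6 was also seen in miR-23b, which differs little from it, at 44042 CPM. MiR-27a stood at 5175, 2438 and 4275 CPM in the OA joint and at 1576, 3302 and 1833 CPM in the control joint (fitted log2 fold 0.83, SE 2.10). MiR-22 stood at 26432, 25093 and 22138 CPM in the OA joint and at 6915, 12737 and 24009 CPM in the control joint (fitted log2 fold 0.87, SE 0.79).

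The microRNA that defines chondrocytes, miR-140, could not be followed at this depth. Its 3p arm had 0, 0 and 116 reads in the OA joint against 0, 0 and 1 in the CTRL joint. Its 5p arm had no read in the OA joint against 106 in the CTRL joint of horse 6. The arms of the hairpin were therefore read in different joints and in different horses. Of the chondrocyte list 6 members were tested, and the 3 with over 3 reads in each joint (miR-148a, miR-27a and miR-27b) were fitted higher, with log2 folds of 0.58, 0.83 and 0.71 and SEs of 1.04, 2.10 and 1.61. None of the 3 passed in edgeR.

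Leukocyte markers were patchy. MiR-223, of neutrophils and monocytes, had 239, 0 and 131 reads in the OA joint against 379, 179 and 0 in the CTRL joint. MiR-142-5p had 137, 503 and 234 reads against 239, 26 and 1, while miR-142-3p, the other arm, had 0 in all 6 libraries. MiR-150, of mature lymphocytes, had 0, 123 and 146 reads against 0, 195 and 1. For each of them the joints overlapped. Of the myeloid list 2 members were fitted higher and 5 lower, and of the lymphocyte list 2 higher and 4 lower, and 0 of either passed. The myeloid list, in which miR-21 takes most reads, nevertheless took 12.9%, 11.2% and 12.6% of the microRNA reads in the OA joint and 11.18%, 8.96% and 9.92% in the CTRL joint, higher in each horse.

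Of markers from outside the joint, the hepatocyte microRNA miR-122 had 137, 784 and 0 reads in the OA joint against 0, 0 and 231 in the CTRL joint. The epithelial miR-205 had 0, 296 and 62 reads in the OA joint against none in the CTRL joint, and miR-200c had 59 in the OA joint of horse 8 and none elsewhere. The epithelial list took 0%, 0.688% and 1.14% of the OA-joint reads and 0%, 0.0755% and 0% of the CTRL-joint reads. In plasma of the same horses it took 0.00305%, 0.0694% and 0.378%. The muscle microRNA miR-133a had 121 reads in the CTRL joint of horse 6 and 1 read in the OA joint of horse 8.

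The let-7 family, whose members share a seed and repress growth-promoting messages such as HMGA2, held the microRNA with the smallest p. Let-7g had 115, 2 and 125 reads in the OA joint of horses 2, 6 and 8 and 0 in the CTRL joint of all 3. Set against a floor of 3 reads over the 3 CTRL-joint libraries, its pooled reads were at least 89.9-fold higher in the OA joint (adjusted p = 0.371 in edgeR). The 2 reads of horse 6 lie under that floor and give no fold for this horse. At time point 0 the reads of let-7g had lain mainly on the other side, with 43 in the OA joint against 316 in the CTRL joint of 4 horses each. The joint difference of let-7g at time point 10 against that at time point 0 had an adjusted p of 0.144 in edgeR.

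Let-7d had 57, 350 and 60 reads in the OA joint against 0, 1 and 0 in the CTRL joint, a pooled ratio of 521 (exact 95% interval 93.0 to 20608, counting error only). At time point 0 it had 91 and 183 reads. The abundant members showed no such split. Let-7c stood at 111604, 71727 and 102211 CPM in the OA joint and at 99608, 76740 and 38477 CPM in the control joint (fitted log2 fold 0.36, SE 0.55). Without horse 8 its fold was -0.02. Let-7a stood at 24226, 12707 and 7445 CPM against 12070, 18944 and 4943 CPM (log2 fold 0.29, SE 0.90). The family took 15.6%, 9.56% and 13.2% of the microRNA reads in the OA joint and 12.3%, 11.5% and 5.03% in the CTRL joint, with overlap. The CTRL joint thus held the family while holding 0 reads of let-7g and 1 of let-7d.

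MiR-192 and miR-215 share a seed and are known from liver and gut, and they split in opposite directions. MiR-192 had 176, 45 and 148 reads in the OA joint and 0 in all CTRL-joint libraries, at least 137-fold higher in the OA joint when pooled. MiR-215 had 0, 2 and 108 reads in the OA joint against 240, 219 and 458 in the CTRL joint (fitted log2 fold -2.53, SE 2.65, adjusted p = 1.00 in edgeR). In both cases no library of one joint overlapped with the other joint. At time point 0 miR-192 had 323 reads in the OA joint against 2 in the CTRL joint, 177 of them from the OA joint of horse 2. MiR-215 then had 2 and 167 reads, 166 of them from the CTRL joint of horse 8. In horse 6 neither had more than 1 read in either joint at time point 0.

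**Figure D4:**
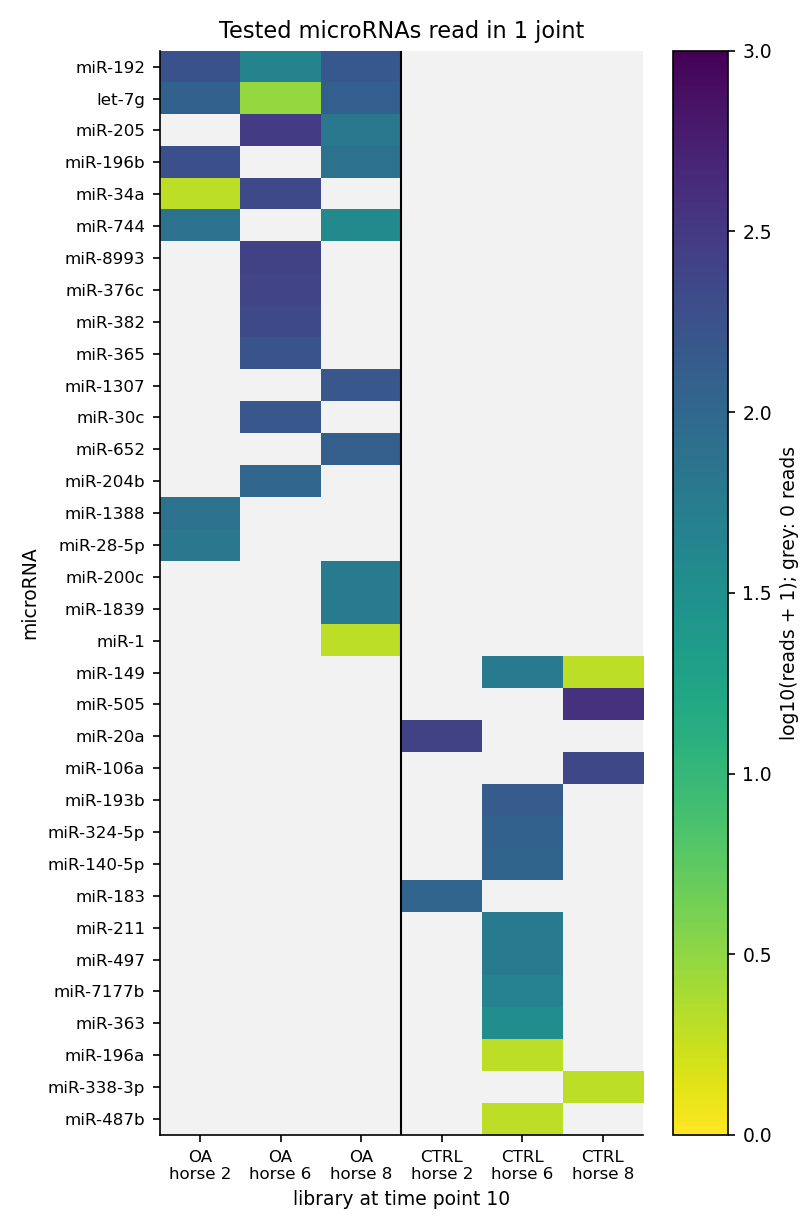
Reads per library, as log10(reads + 1), of the 34 tested microRNAs read in 1 joint at time point 10; columns are the libraries of horses 2, 6 and 8, and grey marks 0 reads. MiR-192 and let-7g are the 2 microRNAs read in all 3 libraries of a joint, and 27 of the 34 fill a single column.

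Most microRNAs read in 1 joint were read in 1 horse. Of the 19 tested microRNAs read in the OA joint alone, 13 came from 1 library, 4 from 2 and 2 from 3. Of the 15 read in the CTRL joint alone, 14 came from 1 library, 1 from 2 and 0 from 3. MiR-196b, of a HOX cluster, had 186 reads in horse 2 and 74 in horse 8 of the OA joint. Pooled over the joint it was at least 96.6-fold higher there. MiR-744 had 75 and 37 reads in the same horses (at least 41.6-fold when pooled), and pooled miR-205 was at least 133-fold higher.

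Single OA-joint libraries held miR-1307 (153 reads, horse 8), miR-8993 (261 reads, horse 6), miR-1388 (74 reads, horse 2) and, all in horse 6, miR-30c (152 reads), miR-382 (215 reads) and miR-376c (233 reads). The last 2 are encoded in the imprinted DLK1-DIO3 cluster, and the library of horse 6 held both. On the side of the CTRL joint, miR-505 had 377 reads and miR-106a had 224, both in horse 8. MiR-20a had 263 reads and miR-183 had 104, both in horse 2. The library of horse 6 held miR-193b (135 reads), miR-324-5p (116 reads), miR-211 (59 reads), miR-497 (58 reads), miR-7177b (46 reads) and miR-363 (33 reads). These values describe single libraries and have no replicate within their joint. MiR-149 had 55 reads in the same library and 1 in the CTRL joint of horse 8. Among the 17 microRNAs read in the 6 libraries but removed by the filter on low counts, miR-494 of the DLK1-DIO3 cluster had 240, 1 and 223 reads in the CTRL joint of horses 2, 6 and 8 and 0 in all OA-joint libraries. It was the only microRNA, tested or not, with a read in all 3 CTRL-joint libraries and in no OA-joint library. Others of that cluster removed by the filter were read in the OA joint alone. MiR-543 had 116 and 132 reads in horses 2 and 6, miR-369-3p 218 in horse 6, and miR-380 and miR-433 129 and 41 in horse 8. The cluster list took 0.957%, 1.11% and 0.418% of OA-joint reads and 0.788%, 0.00566% and 0.365% of CTRL-joint reads, with overlap.

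MiR-423-5p stood at 8721, 7078 and 4472 CPM in the OA joint and at 10923, 11265 and 38805 CPM in the control joint. All OA-joint libraries lay lower, and the gap was widest in horse 8 (log2 fold -1.45, SE 1.34, adjusted p = 0.911 in edgeR). MiR-101, which represses the chromatin enzyme EZH2, stood at 4103, 5782 and 3170 CPM against 6930, 8095 and 7218 CPM, again with all OA-joint libraries lower (log2 fold -0.71, SE 1.77). MiR-31 was higher in the OA joint of all 3 horses, at 5587, 7649 and 9066 CPM against 15.3, 2981 and 5597 CPM, with the groups overlapping by 1 CTRL-joint library.

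Collagen-targeting miR-29 microRNAs took 0.161%, 0.488% and 0.359% of the microRNA reads in the OA joint and 1.38%, 0.723% and 0.681% in the CTRL joint, without overlap. At time point 0 horses 2, 6 and 8 had 0.00408%, 0.00356% and 0.00235% against 1.43%, 0.625% and 0.00401%. Each of these OA-joint shares, and the CTRL-joint share of horse 8, was that of 1 read. The same order thus held in horses 2 and 6, while horse 8 had 1 read in each joint and gives no order. MiR-29a accounted for the lower share at time point 10 in horses 2 and 6, with 77 and 124 reads against 743 and 382. In horse 8 it had 146 reads against 0. There miR-29c made up the CTRL-joint share, with 416 reads against 0. Neither passed (log2 folds -1.55, SE 2.30, and -1.28, SE 3.55).

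Whether the joint difference, OA minus CTRL, changed from time point 0 to time point 10 was tested on the difference between the joint differences. Time point 0 had 4 horses a joint. In edgeR 0 of 139 microRNAs passed (0%), with a smallest adjusted p of 0.12, and 21 (15.1%) had an unadjusted p under 0.05. Of the 139, 72 were read in all 4 groups compared, and 3 of those 72 had an unadjusted p under 0.05. The smallest p belonged to miR-8993, with 0 reads in the OA joint against 823 in the CTRL joint at time point 0 and 261 against 0 at time point 10. All 261 came from horse 6, which had 0 reads in either joint at time point 0. Of the 823, 775 came from horse 8 and 48 from horse 2, which both had 0 reads at time point 10. The reversal was thus not seen within any horse. MiR-8993 passed in the same test with the horse as a block (adjusted p = 0.0203 in edgeR). MiR-144 had 0 and 168 reads at time point 0 and 298 and 1 at time point 10. In horse 8 it went from 0 against 137 reads to 192 against 1, so the reversal was seen within that horse. Horse 6 had 0 reads of miR-144 in either joint at time point 0 and 106 against 0 at time point 10. MiR-363 went from 536 against 1 to 0 against 33, with the 536 from horse 8 and the 33 from horse 6.

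Against the mean of time points 35 to 63, 0 of 139 joint differences at time point 10 passed in edgeR (0%), and 1 (0.719%) had an unadjusted p under 0.05, that of let-7g. This contrast spans 12 groups, 63 of the 139 microRNAs were read in all of them, and 0 of those 63 had an unadjusted p under 0.05. For 68 microRNAs the standard error, derived from the fold and its F statistic, was over 100 on the log2 scale. Such a value reflects an F near 0, so the contrast says little about them. The joint difference of miR-10b, OA minus CTRL, was more negative at time point 10 than on average later, by -1.11 on the log2 scale (SE 0.65), which did not pass in edgeR. Its joint differences at the later time points were -0.25, 0.22, -0.00, -0.52 and 0.44, with SEs of 0.52 to 0.60.

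**Figure D5:**
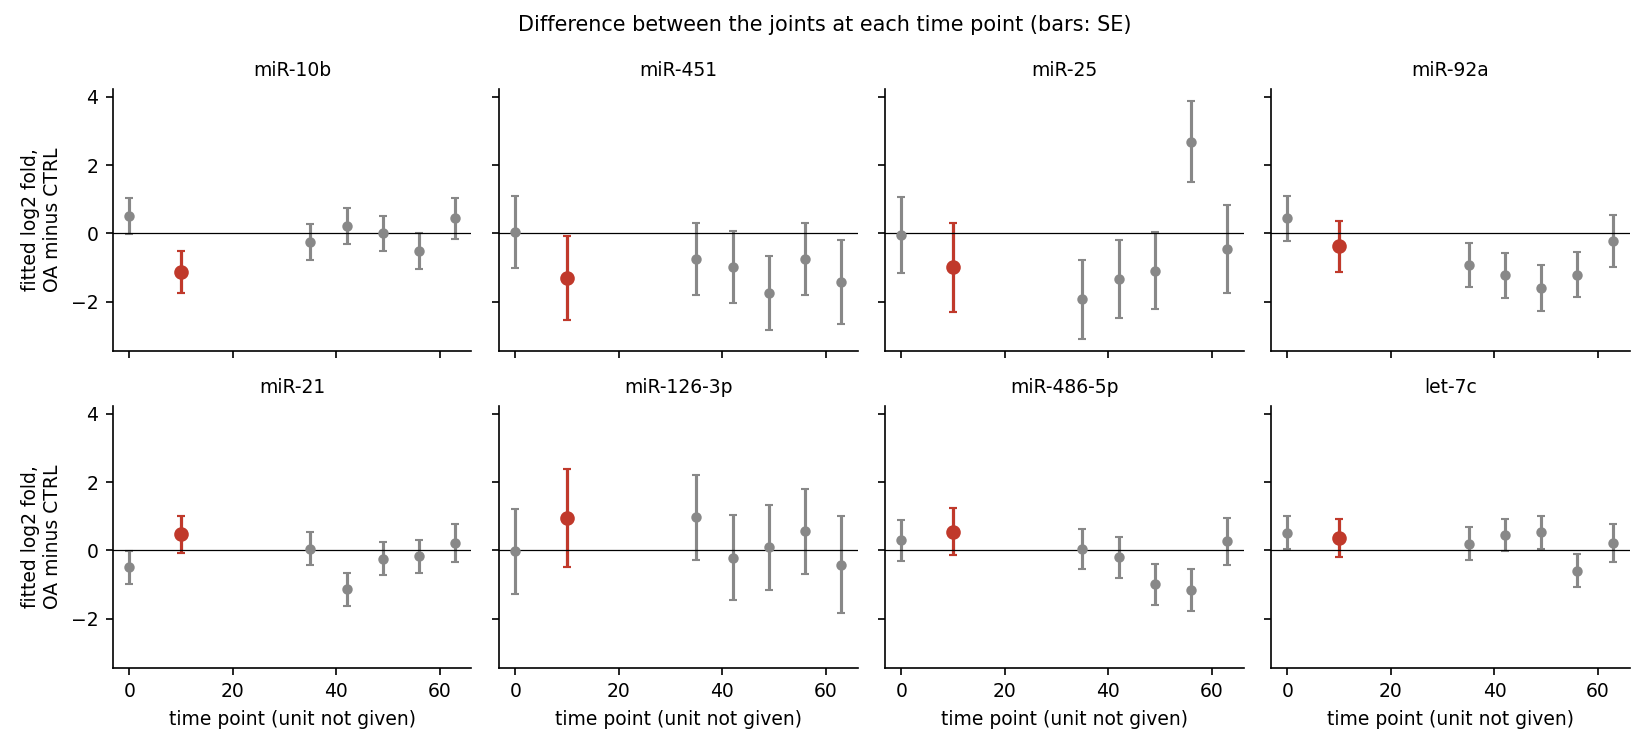
Fitted log2 fold of OA over CTRL joint with its SE at each of the 7 time points for 8 abundant microRNAs, with time point 10 in red. MiR-10b is at -1.13 at time point 10 and between -0.52 and 0.51 elsewhere, and miR-451 lies below 0 at all 6 time points after 0.

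The joint difference of miR-451 was 0.04 at time point 0 and -1.31 at time point 10, and -0.76, -0.98, -1.75, -0.75 and -1.41 at time points 35, 42, 49, 56 and 63, with SEs of 1.05 to 1.24. MiR-25 was at -1.0 at time point 10, at -1.94, -1.33, -1.09 and -0.46 at time points 35, 42, 49 and 63, and at 2.69 at time point 56. MiR-92a was at -0.38 at time point 10 and stood at -0.93 to -1.60 at time points 35 to 56. MiR-21 was at -0.50 at time point 0 and 0.46 at time point 10, and later at 0.05, -1.14, -0.24, -0.18 and 0.21. MiR-126-3p was at -0.03 and 0.94 at time points 0 and 10, and later at 0.96, -0.21, 0.09, 0.56 and -0.42. Its value at time point 35 was thus as high as that at time point 10. The change of these joint differences from time point 0 to 10 was 0.96 (SE 0.73) for miR-21, 0.98 (SE 1.89) for miR-126-3p and -1.35 (SE 1.61) for miR-451, and none of the 3 passed in edgeR.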

How the data were processed

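Libraries were prepared with a TriLink CleanTag kit per the labels' protocols, and per the submitters' processing notes cutadapt, Bowtie, edgeR and the horse build EquCab3.0 were used. The sources used here give neither their settings nor the handling of multi-mapping reads. The files deposited by the authors give, per library and name, read counts, RPM of a library total, and a value relative to the sum of microRNA reads, whose divisor equalled that sum (largest difference 0). Counts of horse microRNA names were used for every test and their sum for CPM; spike-ins stayed out of library sizes. The deposited RPM served to recover library totals.

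Counts of 52 synovial fluid libraries in 14 groups were fitted once with edgeR 4.0.16 (TMM, filterByExpr with a count minimum of 10, quasi-likelihood F-test) in R 4.3.3, adjusted by Benjamini-Hochberg over 139 microRNAs at 0.05. The SE of an edgeR fold is the absolute log2 fold divided by the square root of its F statistic. The 3 single values were compared by exact permutation tests with Python 3.11.15. A joint at 0 reads was set at 3 reads over the joint, against the pooled reads of the other joint. Such a fold need not hold in each horse. A joint at 1 to 3 reads gives a pooled ratio with its exact binomial interval. Simulated counts were used to test the fit. The members, the 22 lists and the tests were chosen with earlier results of these data known. Named microRNAs are the 12 higher and 12 lower with the smallest p, the 12 most abundant, those whose joints do not overlap, the 3 higher and 3 lower in each contrast over time, and the defining markers; others named from the lists or for their values were picked after these were seen. Libraries of a horse are paired by the labels; their deviations from the joint means correlated at 0.159, 0.00105 and 0.131 in horses 2, 6 and 8. Alternatives were other scalings (RLE, none, UniSp2), no filter, DESeq2 1.42.0, a horse block, the lane, the 6 libraries alone, and leaving out libraries. Leaving out horse 4 was added after the data were seen. The smallest p within 3 horses is 0.25. Of list members, several names were not in the files under that spelling and were not searched for otherwise.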

Additional observations from a re-analysis of the deposited data

How the results depend on the processing

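The count of 0 microRNAs passing between the joints was also 0 with RLE scaling, no scaling, UniSp2 scaling, no filter, the horse as a replicate block, the lane as a covariate, the 6 libraries alone, any library or horse left out, and horses 2, 6 and 8 alone; DESeq2 gave 15, leaving 24 adjusted p-values undefined. With 3 pairs, the block on the 6 libraries gave a smallest adjusted p of 0.378 in edgeR, which miR-451 and miR-25 both had. For the joint difference against time point 0 the count was 1 instead of 0 with no filter, with the replicate block and with the lane (miR-8993 each time), and 15 in DESeq2. Against time points 35 to 63 DESeq2 gave 11. The paired block changed no other call. MicroRNA reads per 1000 UniSp2 reads differed by -5.02 to 8.28 when 1 horse was left out (-0.45 without horse 2, -5.02 without horse 6). Of the 304 alternative values of the 16 fitted microRNAs, 24 changed sign, all of small folds. Let-7c was at -0.016 without horse 8 and at up to 0.88 without horse 6. MiR-26a was at 0.15 with RLE scaling, 0.024 without a filter, 0.15 in DESeq2, 0.13 with UniSp2 scaling, and 0.11 in the 6 libraries with or without the block. With libraries or horses left out miR-26a ran from -0.31 to 0.27, miR-92a from -0.92 to 0.034, miR-199a-3p and miR-199b-3p from -0.22 to 1.16 (1.59 in the 6 libraries with the block, adjusted p = 0.54 in edgeR) and miR-221 from -0.23 to 0.62. The cause was not tested. Zeros in 46.5% of values leave many folds to single libraries.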

Other observations

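Within a horse the joints shared 61, 60 and 54 microRNAs with a read in horses 2, 6 and 8, with 19, 20 and 29 read in the OA joint alone and 10, 27 and 14 in the CTRL joint alone. Over all 3 horses, 87 microRNAs were read in both joints, 30 in the OA joint alone and 20 in the CTRL joint alone. As a share of the microRNAs read in either library of a pair, libraries of the same horse shared a median of 56.1%, libraries of the same joint from different horses 58.3% and the remaining pairs 55.7%.

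Other microRNAs with few reads in the CTRL joint came in part from the same libraries. The epithelial miR-141 had 372 OA-joint reads and 1 CTRL-joint read, miR-409-3p of the DLK1-DIO3 cluster 295 and 1, and miR-93, a relative of the miR-17 family, 214 and 1. MiR-103 and miR-107a had equal reads in all 6 libraries and are not read as independent microRNAs. With miR-107b they took 2.59%, 5.56% and 1.90% of the microRNA reads in the OA joint and 5.01%, 3.38% and 6.97% in the CTRL joint. These shares count the equal reads under both names. The log2 folds were -0.40, -0.40 and -0.96, none of which passed in edgeR.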
